A study of Mus musculus with 9 samples.

Results

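The genes examined here are 10 chaperones and proteases of mouse mitochondria, chosen by name from the 26858 genes of the deposited count table. *Hspd1*, *Hspe1*, *Hspa9* and *Trap1* encode chaperones of the matrix. *Lonp1*, *Clpp* and *Clpx* encode the proteases of the matrix that use ATP, and *Yme1l1*, *Afg3l2* and *Spg7* encode those of the inner membrane. All 10 were counted in every library and passed the filter on low counts, as did 14990 genes in all.

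Most mitochondrial proteins are made in the cytosol and cross both mitochondrial membranes unfolded. HSPA9 (mortalin) pulls them into the matrix, the chaperonin HSPD1 with its lid HSPE1 folds them, and AAA+ proteases degrade what is misfolded, damaged or left without a partner. When proteins of the respiratory chain are made in unbalanced amounts, cells can raise transcripts of such chaperones and proteases, a program called the mitochondrial unfolded protein response, which in mammals overlaps with the integrated stress response of ATF4, DDIT3 (CHOP) and ATF5.

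The study removed *Uqcrq* (*Qpc*), a subunit of complex III of the respiratory chain, from the nephron progenitors of the mouse kidney, and asked how electron transport bears on nephron formation. Both groups carried a bacterial artificial chromosome transgene in which the *Six2* promoter drives Cre recombinase fused to eGFP, and cells positive for eGFP were sorted from kidneys at E18.5, late in gestation. The controls were heterozygous for the deletion (*Six2-Qpc*+/-, 4 libraries, here Control 71, 72, 73 and 76), so they lacked 1 allele of *Uqcrq* in the same cells and are not wild-type. The mutants had both floxed alleles deleted (*Six2-Qpc*-/-, 5 libraries, here Mutant 74, 75, 77, 78 and 79). The study describes as many mice of each genotype as there are libraries, but the labels tie no library to an animal, so the p-values measure the spread between these samples. Each library held between 21040536 and 23986458 counts, and levels are given as CPM, counts per 1000000 counts of the library after TMM scaling.

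*Uqcrq* itself, at chr11:53427922-53430831 on the minus strand of mm10, was at 107, 76.8, 91.1 and 101 CPM in Control 71, 72, 73 and 76, and at 16.5, 28.2, 22.6, 20.3 and 19.0 CPM in Mutant 74, 75, 77, 78 and 79. Every mutant library was far below every control library, as the labels have it. The log2 fold change of *Uqcrq*, mutant against control, was −2.14 ± 0.16 (SE), with an adjusted p of 2.09e-05 in edgeR. The counts cover the whole gene. The exons removed from the floxed allele are not named in the text used here, though the study draws the targeted sequences in a schematic.

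The label of nephron progenitors was checked against 10 marker genes, which summed to 2490 ± 234 CPM in controls (SD, n = 4) and 2596 ± 228 CPM in mutants (SD, n = 5). *Six2* was at 571 ± 53.4 CPM in controls and 704 ± 102 CPM in mutants (log2 fold change 0.30 ± 0.13 SE, adjusted p = 0.131 in edgeR). *Crym*, at the same CPM as *Six2* in controls (571 ± 104), was at 427 ± 63.9 CPM in mutants, with 4 of 5 mutants below every control (log2 fold change −0.42 ± 0.15 SE, adjusted p = 0.0698 in edgeR). *Pax2* was at 18.46 ± 4.36 CPM in controls and 12.6 ± 2.67 CPM in mutants (log2 fold change −0.55 ± 0.21 SE, adjusted p = 0.0881 in edgeR). In edgeR 0 of the 10 progenitor markers passed an adjusted p of 0.05, against 14.8% of all tested genes. At an unadjusted p under 0.05 there were 3 (*Six2*, *Crym* and *Pax2*), against 31.4% of all tested genes. DESeq2 called 0 and limma-voom 2 of the 10, against 21.2% and 32.4%.

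Markers of some other cells differed between the genotypes, at lower levels than the progenitor markers. The 10 stromal markers summed to 163, 158, 129 and 220 CPM in Control 71, 72, 73 and 76 and to 500.2, 720.1, 278, 304 and 379 CPM in Mutant 74, 75, 77, 78 and 79. In edgeR 5 of the 9 tested stromal genes, *Pdgfra* among them, were called higher and 0 lower. Of all tested genes 7.82% were called higher and 7.02% lower. The highest CPM of the list belonged to *Foxd1* in controls (29.9) and to *Col3a1* in mutants (83.1). The 9 markers of nascent nephrons and tubules summed to 287, 310.0, 310.4 and 135 CPM in the 4 controls and to 140.2, 47.0, 93.8, 76.98 and 66.6 CPM in the 5 mutants, most of it from *Wnt4*. Of the 6 tested genes of that list, edgeR called 2 lower and 0 higher, against 7.02% and 7.82% of all tested genes. The podocyte gene *Nphs1* was under 1 CPM in every library.

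The 6 macrophage markers summed to 0.128, 4.71, 0.337 and 8.06 CPM in the 4 controls and 4.69, 24.6, 83.9, 34.8 and 21.7 CPM in the 5 mutants, led by *C1qb*, with *Cx3cr1* under 1 CPM throughout. The 8 ureteric bud markers summed to 81.6 ± 14.2 CPM in controls and 79.8 ± 22.9 CPM in mutants, led by *Hoxb7* in controls and *Krt18* in mutants, while the defining genes *Ret*, *Wnt9b* and *Gata3* were under 1 CPM in every library. The 6 endothelial markers summed to 3.90 ± 1.22 and 6.20 ± 2.10 CPM, led by *Emcn*, and the 6 erythroid markers to 1.87 ± 0.59 and 1.94 ± 0.35 CPM, led by *Alas2*. In edgeR, 0 of the 5 tested macrophage markers, 0 of the 5 tested ureteric bud markers, 0 of the 1 tested erythroid marker and 1 of the 4 tested endothelial markers, *Pecam1*, passed the threshold. At an unadjusted p under 0.05 the counts of macrophage, ureteric bud and erythroid markers were 5, 3 and 0. DESeq2 called 3, 2 and 0 of them, and limma-voom called 5, 2 and 0. Over all tested genes the shares were 14.8% in edgeR, 31.4% at an unadjusted p under 0.05, 21.2% with DESeq2 and 32.4% with limma-voom. The part that the stromal, nascent nephron and macrophage differences have in the values of the mitochondrial genes was not tested, and in these bulk samples fewer cells of a type and less RNA per cell cannot be told apart.

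Of the 10 chaperones and proteases, 2 passed an adjusted p of 0.05 in edgeR, *Hspa9* and *Hspe1*, both higher in mutants, and 0 were lower. Over all 14990 tested genes 14.8% passed (2225 genes), 7.82% higher and 7.02% lower, so 2 of 10 lies close to the background and nothing is read from the count itself. At an unadjusted p under 0.05 there were 5 members, against 31.4% of all tested genes. DESeq2 called 4 members (3 higher, 1 lower), against 21.2% of all genes, and limma-voom called 4 (2 higher, 2 lower), against 32.4%. Without Control 72, Control 73 or Mutant 78 the count was 1, and without Mutant 74 it was 4. The count over all genes was 1354, 1272, 1046 and 1336 without Control 71, Control 72, Control 73 and Mutant 78, and 3136 (21.2%) without Mutant 74. The median log2 fold change was 0.08 over the members and −0.01 over all tested genes. In 2 of the 10 members the genotypes did not overlap, against 15.2% of all tested genes.

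**Figure D1:**
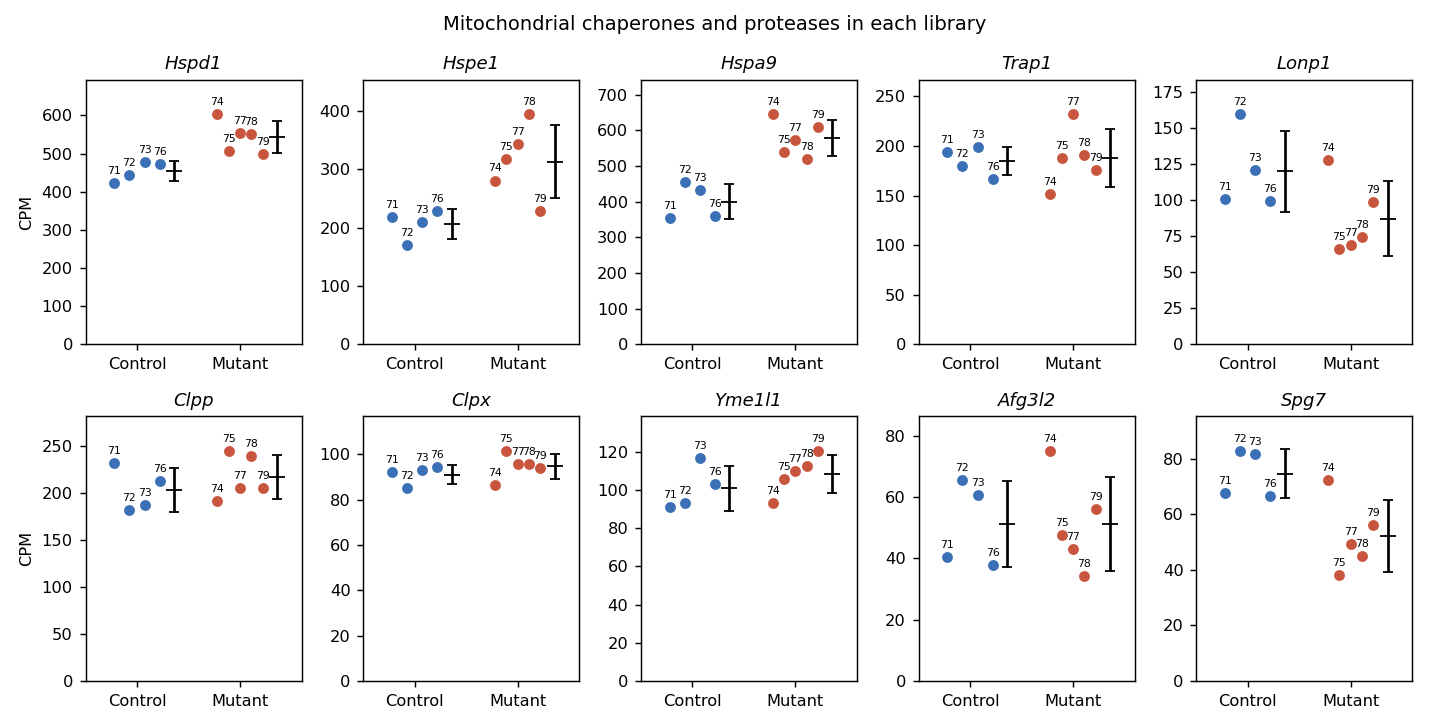
CPM of each of the 10 genes in every library of 4 controls (blue) and 5 mutants (red), labelled by replicate number, with the mean ± SD of each genotype as black bars. *Hspd1* and *Hspa9* do not overlap between the genotypes, and *Hspa9*, *Lonp1*, *Afg3l2* and *Spg7* are highest in Control 72 and Mutant 74 within their genotypes.

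The matrix chaperones held the members that rose. Summed, their 4 transcripts stood at 1245 ± 53.6 CPM in controls (SD, n = 4) and 1621 ± 84.6 CPM in mutants (SD, n = 5). The median log2 fold change of the 4 was 0.39, against −0.01 over all tested genes. The share of counts from the mitochondrial chromosome was 1.48%, 1.11%, 1.31% and 1.28% in Control 71, 72, 73 and 76. It was 1.44%, 1.78%, 1.78%, 1.70% and 1.43% in Mutant 74, 75, 77, 78 and 79, and its part in these values was not tested.

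*Hspa9*, at chr18:34937414-34954357 on the minus strand, encodes the HSP70 of the matrix and the motor of protein import. It was at 355, 454, 431 and 359 CPM in Control 71, 72, 73 and 76, and at 645, 540.0, 573, 519.7 and 608 CPM in Mutant 74, 75, 77, 78 and 79. All 5 mutant libraries lay above all 4 controls. *Hspa9* rose 1.44-fold (log2 fold change 0.53 ± 0.12 SE, adjusted p = 0.0114 in edgeR), and it passed the threshold in all 19 alternatives run, with adjusted p from 0.000164 to 0.0384.

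*Hspe1*, at chr1:55088132-55091307 on the plus strand, encodes HSP10, the lid of the chaperonin. Its level was 218, 169, 209 and 229 CPM in the 4 controls, in the same order, and 281, 317, 344, 394 and 229 CPM in the 5 mutants. Of the 5 mutants, 4 were above every control, and Mutant 79 lay level with Control 76, the highest control. *Hspe1* rose 1.52-fold (log2 fold change 0.60 ± 0.15 SE, adjusted p = 0.0214 in edgeR). Its adjusted p in edgeR became 0.0645 without Control 72, 0.0612 without Control 73 and 0.0533 without Mutant 78, and ranged from 0.00115 to 0.0645 over 19 alternatives.

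*Hspd1*, at chr1:55077835-55088243 on the minus strand, encodes HSP60, the chaperonin that folds imported proteins in the chamber closed by HSPE1. It was at 422, 445, 478 and 472 CPM in the 4 controls and at 603, 506, 554, 552 and 499 CPM in the 5 mutants. The genotypes did not overlap, with Mutant 79 the lowest mutant and Control 73 the highest control. The log2 fold change of *Hspd1* was 0.26 ± 0.10 (SE), and its adjusted p of 0.107 in edgeR missed the threshold. It passed with DESeq2 (adjusted p = 0.0447) and with 1 surrogate variable in edgeR (adjusted p = 0.0466), out of a range of 0.0204 to 0.244 over 19 alternatives.

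*Hspd1* and *Hspe1* lie head to head, and their annotated spans overlap by 112 bases at their first exons. The libraries carry no strand, so reads from the overlap cannot be assigned to either gene. The 3 *Hspe1* pseudogenes of the table, *Hspe1-ps2*, *Hspe1-ps4* and *Hspe1-ps5*, held at most 19, 1 and 1 counts in a library, against at least 4350 for *Hspe1*.

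*Trap1*, at chr16:4039971-4077827 on the minus strand, encodes the HSP90 of mitochondria. Its level was 194, 180.0, 199 and 167 CPM in the 4 controls and 152, 188, 232, 191 and 176 CPM in the 5 mutants. The mutants spread on both sides of the controls, with Mutant 74 lowest and Mutant 77 highest of the 9. The log2 fold change of *Trap1* was 0.02 ± 0.13 (SE, adjusted p = 0.929 in edgeR), with values between −0.11 and 0.09 over 19 alternatives.

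The matrix proteases had 0 of 3 members past the threshold in edgeR, against 14.8% of all tested genes. At an unadjusted p under 0.05 there was 1 (*Lonp1*), against 31.4%. DESeq2 called 0 and limma-voom 1, against 21.2% and 32.4%, and nothing is read from these counts. *Lonp1*, at chr17:56614301-56626903 on the minus strand, encodes a protease of the matrix that also binds mitochondrial DNA. It was at 101, 159.8, 121 and 99.4 CPM in the 4 controls and at 128, 66.1, 69.2, 74.3 and 98.6 CPM in the 5 mutants. Of the 5 mutants, 4 were below every control, while Mutant 74 exceeded all controls but Control 72. The log2 fold change of *Lonp1* was −0.46 ± 0.20 (SE, adjusted p = 0.137 in edgeR). Without Mutant 74 it was −0.64 with an adjusted p of 0.0189 in edgeR, without Control 72 it was −0.30 (adjusted p = 0.383), and with 1 surrogate variable −0.15 (adjusted p = 0.384). Over 19 alternatives the adjusted p ranged from 0.00301 to 0.384.

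*Clpp*, at chr17:56990264-56996371 on the plus strand, encodes the peptidase, and *Clpx*, at chr9:65294260-65330658 on the plus strand, the unfoldase that feeds it. *Clpp* ranged from 182 to 232 CPM in controls and from 192 to 245 CPM in mutants, and *Clpx* from 85.0 to 94.3 and from 86.5 to 101 CPM. The genotypes overlapped for both genes, and *Clpx* varied less between libraries than any other member. The log2 fold changes in edgeR were 0.09 ± 0.12 for *Clpp* (SE, adjusted p = 0.623) and 0.06 ± 0.10 for *Clpx* (SE, adjusted p = 0.741).

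The inner membrane proteases also had 0 of 3 members past the threshold in edgeR, against 14.8% of all tested genes. At an unadjusted p under 0.05 there was 1 (*Spg7*), against 31.4%. DESeq2 and limma-voom each called *Spg7* alone, against 21.2% and 32.4% of all tested genes, and nothing is read from these counts. SPG7 (paraplegin) and AFG3L2 build the m-AAA protease, whose active sites face the matrix. *Spg7*, at chr8:123062942-123097760 on the plus strand, was at 67.5, 82.7, 81.5 and 66.5 CPM in the 4 controls and at 72.2, 38.1, 49.4, 45.0 and 56.2 CPM in the 5 mutants. As for *Lonp1*, 4 of the 5 mutants were below every control, and Mutant 74 lay among the controls. The log2 fold change of *Spg7* was −0.51 ± 0.17 (SE), and its adjusted p of 0.0553 in edgeR missed the threshold narrowly. It was 0.00679 without Mutant 74 and 0.0295 with DESeq2, but 0.149 without Control 73 and 0.119 with 1 surrogate variable, where the log2 fold change was −0.31, within a range of 0.00255 to 0.149 over 19 alternatives, 8 of which were under 0.05.

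*Afg3l2*, at chr18:67404767-67449166 on the minus strand, was at 40.3, 65.7, 60.7 and 37.9 CPM in the 4 controls and at 75.05, 47.5, 43.1, 34.4 and 56.0 CPM in the 5 mutants. It varied more within each genotype than between them, with Control 72, Control 73 and Mutant 74 highest. Its log2 fold change was 0.00 ± 0.22 (SE, adjusted p = 0.997 in edgeR), and over 19 alternatives the log2 fold change ranged from −0.30 with limma-voom (adjusted p = 0.241) to 0.36 with 1 surrogate variable in edgeR (adjusted p = 0.0875). *Yme1l1*, at chr2:23156369-23199260 on the plus strand, encodes the i-AAA protease, whose active sites face the intermembrane space. It ranged from 91.0 to 117 CPM in controls and from 93.2 to 121 CPM in mutants, with overlapping genotypes and a log2 fold change of 0.10 ± 0.12 (SE, adjusted p = 0.584 in edgeR).

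The fitted log2 fold change was above 0 for 8 of the 10 members, all but *Lonp1* and *Spg7*, and for 6 of 10 under upper-quartile scaling, where *Trap1* and *Afg3l2* turned below 0. With 1 surrogate variable it was above 0 for 5 of 10, with *Trap1*, *Clpp* and *Clpx* below 0. *Trap1*, *Clpp*, *Clpx*, *Yme1l1* and *Afg3l2*, 5 of the 10, had log2 fold changes between 0.00 and 0.10 in edgeR. Together the 10 genes took 0.182%, 0.208%, 0.208% and 0.185% of the counts in the 4 controls and 0.240%, 0.203%, 0.212%, 0.212% and 0.217% in the 5 mutants. Mutant 75 was below Control 72 and Control 73 in this share, and Mutant 74 was the highest library.

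*Hspa9*, *Lonp1*, *Afg3l2* and *Spg7* were highest in Control 72 among the controls and in Mutant 74 among the mutants. These 2 libraries also had the longest genes per count, with a mean gene length per count of 3129 bases in Control 72 and 3122 in Mutant 74, followed by 3103 in Mutant 79 and 3038 in Control 73. In the other 5 libraries it lay between 2890 and 2950 bases. With this length as a covariate, an alternative chosen after seeing the data, edgeR called 5 of the 10 members, against 27.7% of all tested genes (14.8% without the covariate): *Hspd1*, *Hspe1* and *Hspa9* higher, and *Lonp1* (log2 fold change −0.47, adjusted p = 0.00301) and *Spg7* (−0.53, adjusted p = 0.00381) lower. With Control 72 and Mutant 74 both left out, also chosen after seeing the data, edgeR called *Hspe1*, *Hspa9* and *Spg7*, 3 of the 10, against 13.4% of all genes. What sets these libraries apart was not tested.

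Per kilobase of gene length, the members covered a wide range in controls. *Hspe1* ranged from 176 to 237 CPM per kilobase, *Hspd1* from 174 to 197 and *Clpp* from 151 to 192, 3 neighbours whose libraries overlapped. *Hspa9* (116 to 149) and *Trap1* (71.9 to 85.8) followed without overlap. *Lonp1* (33.6 to 53.9) lay above *Clpx* (29.5 to 32.7), and *Spg7* (19.7 to 24.4), *Yme1l1* (19.3 to 24.8) and *Afg3l2* (12.3 to 21.3) came last, with ranges that overlapped. The peptidase transcript *Clpp* was thus far more abundant per kilobase than that of its unfoldase *Clpx*, and the chaperonin and its lid were near parity.

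Partners of 3 complexes, and the HSP70 and HSP60 of the matrix, were compared within each library, where scaling cancels, as the ratio of counts per kilobase. The 4 ratios were tested on the log2 scale by a 2-sided exact permutation test over the libraries, whose smallest possible p is 0.00794, and adjusted over the 4. None of the 4 passed an adjusted p of 0.05, and 2 had an unadjusted p under 0.05.

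The ratio of *Hspd1* to *Hspe1* was 0.769, 1.04, 0.912 and 0.821 in Control 71, 72, 73 and 76 and 0.855, 0.634, 0.641, 0.557 and 0.868 in Mutant 74, 75, 77, 78 and 79. Mutant 75, 77 and 78 were below every control, and the other 2 mutants lay among the controls. The mean log2 ratio was −0.18 ± 0.19 in controls (SD, n = 4) and −0.51 ± 0.28 in mutants (SD, n = 5; exact permutation p = 0.0952, adjusted p = 0.127).

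The ratio of *Hspa9* to *Hspd1*, the HSP70 against the HSP60 of the matrix, was 0.668, 0.811, 0.716 and 0.605 in the 4 controls and 0.850, 0.848, 0.822, 0.748 and 0.969 in the 5 mutants. Mutant 78 alone lay below a control, Control 72. The mean log2 ratio was −0.52 ± 0.18 in controls (SD, n = 4) and −0.24 ± 0.13 in mutants (SD, n = 5; exact permutation p = 0.0317, adjusted p = 0.0635).

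The ratio of *Afg3l2* to *Spg7*, the subunits of the m-AAA protease, was 0.656, 0.871, 0.818 and 0.625 in the 4 controls and 1.14, 1.37, 0.958, 0.839 and 1.09 in the 5 mutants. *Spg7* was the more abundant per kilobase in all 4 controls, and *Afg3l2* in 3 of the 5 mutants, with Mutant 78 again below Control 72. The mean log2 ratio was −0.44 ± 0.24 in controls (SD, n = 4) and 0.09 ± 0.27 in mutants (SD, n = 5; exact permutation p = 0.0238, adjusted p = 0.0635). The ratio of *Clpx* to *Clpp* lay between 0.166 and 0.208 in controls and between 0.167 and 0.195 in mutants (exact permutation p = 0.627, adjusted p = 0.627).

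**Figure D2:**
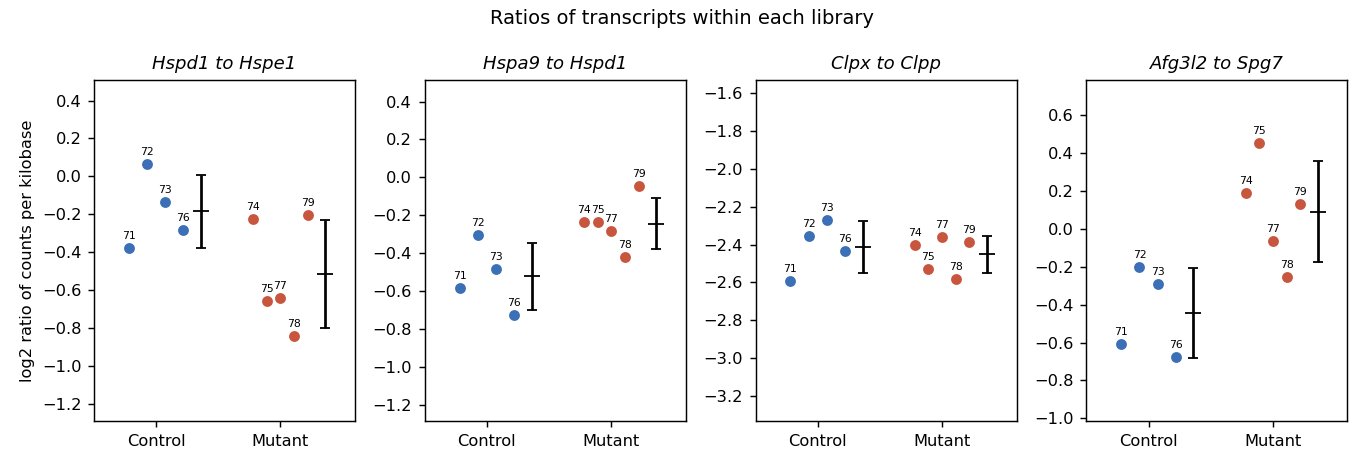
Log2 ratio of counts per kilobase for 4 pairs of transcripts in each of 4 control (blue) and 5 mutant (red) libraries, labelled by replicate number, with the mean ± SD of each genotype as black bars. The ratio of *Afg3l2* to *Spg7* has the widest distance between the means, 0.53, and every pair has overlapping genotypes.

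Genes related to these chaperones and proteases were read from 5 lists, which include counterparts outside mitochondria and transcription factors. Of their 47 genes, 12 passed an adjusted p of 0.05 in edgeR, against 14.8% of all tested genes. By list, these were 2 of 9 co-chaperones and other mitochondrial chaperones, 3 of 16 other mitochondrial proteases and 0 of 6 scaffolds and regulators. The rest were 3 of 11 counterparts in cytosol and endoplasmic reticulum and 4 of 5 transcription factors. The count over the 47 was 7, 7, 6 and 7 without Control 71, Control 72, Control 73 and Mutant 78. The shares of all tested genes were then 8.88%, 8.36%, 6.85% and 9%. It was 6 without Control 72 and Mutant 74 together, against 13.4%, and 19 with limma-voom, against 32.4%.

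Of 9 co-chaperones and other mitochondrial chaperones, edgeR called 1 higher, 1 lower and 7 not, with a median log2 fold change of 0.04. DESeq2 called 2 of the 9, against 21.2% of all tested genes, and limma-voom 3, against 32.4%. *Grpel2*, a nucleotide exchange factor of HSPA9, was at 63.4, 59.5, 53.8 and 71.7 CPM in the 4 controls and 76.3, 109.6, 133, 129 and 98.8 CPM in the 5 mutants, so every mutant exceeded every control. It rose by a log2 fold change of 0.82 ± 0.16 (SE, adjusted p = 0.00641 in edgeR). Its paralog *Grpel1* was at 161 ± 26.7 CPM in controls and 187 ± 29.8 CPM in mutants (log2 fold change 0.22 ± 0.15 SE, adjusted p = 0.331 in edgeR). The log2 fold change of *Grpel1* was 0.34 with limma-voom (adjusted p = 0.0463) and 0.01 with 1 surrogate variable in edgeR (adjusted p = 0.955). With mean gene length per count as a covariate its adjusted p in edgeR was 0.0192.

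*Dnaja3*, a J-domain partner of HSPA9, was at 75.5 ± 6.41 CPM in controls and 77.5 ± 7.71 CPM in mutants, with an adjusted p of 0.861 in edgeR. *Bcs1l*, an AAA+ protein of the inner membrane that inserts the Rieske protein into complex III, fell from 24.9 ± 2.97 CPM in controls to 18.1 ± 1.08 CPM in mutants without overlap (log2 fold change −0.46 ± 0.14 SE, adjusted p = 0.0385 in edgeR). The call was lost in 10 of 19 alternatives, when any library other than Mutant 74 was left out (0.0575 to 0.0951), without Control 72 and Mutant 74 together (0.0606) and with a filter of 1 count in any library (0.0974).

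Of 16 other mitochondrial proteases and peptidases, edgeR called 1 higher, 2 lower and 13 not, with a median log2 fold change of −0.18. DESeq2 called 4 of the 16, against 21.2% of all tested genes, and limma-voom 7, against 32.4%. *Oma1*, the stress-activated protease of the inner membrane, was at 41.5, 41.4, 47.5 and 30.7 CPM in the 4 controls and 22.3, 28.2, 32.9, 21.2 and 28.9 CPM in the 5 mutants. Control 76 was low among the controls and lay below Mutant 77. *Oma1* fell with a log2 fold change of −0.59 ± 0.17 (SE, adjusted p = 0.0317 in edgeR), a call lost in 6 of 19 alternatives, without Control 71 (0.0733), Control 72 (0.0734), Control 73 (0.114) or Mutant 78 (0.0778), without Control 72 and Mutant 74 together (0.0789) and with Y-linked expression as a covariate (0.0633).

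*Afg3l1*, the mouse paralog of *Afg3l2* in the m-AAA protease, was at 41.2, 56.2, 49.2 and 31.9 CPM in the 4 controls and 39.2, 20.8, 26.5, 28.8 and 33.8 CPM in the 5 mutants, highest in Control 72 and Mutant 74 like its partners. Its log2 fold change was −0.58 ± 0.20 (SE, adjusted p = 0.0634 in edgeR), and the adjusted p was 0.0309 without Control 76 and 0.0208 without Mutant 74, but 0.189 without Control 72 and 0.206 with 1 surrogate variable, where the log2 fold change was −0.30. Over 19 alternatives it ranged from 0.00584 to 0.206.

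*Htra2*, a serine protease of the intermembrane space, fell from 49.95 ± 5.28 to 37.2 ± 4.27 CPM (log2 fold change −0.42 ± 0.13 SE, adjusted p = 0.0421 in edgeR). The call was lost in 11 of 19 alternatives, with an adjusted p between 0.0688 and 0.112 when any library other than Control 76 and Mutant 74 was left out, 0.0519 without Control 72 and Mutant 74 together, 0.0717 with Y-linked expression as a covariate and 0.0777 with a filter of 1 count in any library. With 1 surrogate variable the log2 fold change was −0.31 (adjusted p = 0.0947). *Nln*, a peptidase found in mitochondria and cytosol, rose from 21.1 ± 1.78 to 29.9 ± 2.08 CPM (log2 fold change 0.51 ± 0.13 SE, adjusted p = 0.0204 in edgeR, 0.0533 without Control 71 and 0.0642 without Control 73). The genes not called with the highest CPM over all libraries, *Pitrm1* and *Pmpca*, had adjusted p of 0.220 and 0.292 in edgeR.

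Of 6 scaffolds and regulators of the inner membrane proteases, 0 passed the threshold in edgeR, against 14.8% of all tested genes. At an unadjusted p under 0.05 there was 1, against 31.4%. DESeq2 called 0 and limma-voom 1, *Ghitm*, against 21.2% and 32.4%. *Ghitm* (TMBIM5), an inner membrane protein, was at 393 ± 43.9 CPM in controls and 478 ± 70.7 CPM in mutants (log2 fold change 0.28 ± 0.13 SE, adjusted p = 0.157 in edgeR). *Phb*, which forms the ring around the m-AAA protease, was at 304 ± 26.2 and 271 ± 20.4 CPM (log2 fold change −0.17 ± 0.11 SE, adjusted p = 0.301 in edgeR). With 1 surrogate variable its log2 fold change was −0.26 (adjusted p = 0.0384 in edgeR). With mean gene length per count as a covariate, the adjusted p in edgeR was 0.0497 for *Phb* and 0.0201 for *Ghitm*.

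The cytosol and the endoplasmic reticulum have chaperones of the same families. In edgeR 3 of 11 were called higher, 0 lower and 8 not, with a median log2 fold change of 0.24. DESeq2 and limma-voom each called 4 of the 11, against 21.2% and 32.4% of all tested genes. *Dnajb1*, an HSP40 induced by heat shock, was at 143, 173, 219 and 256 CPM in the 4 controls and 443, 474, 469, 771 and 284 CPM in the 5 mutants. Mutant 79 was the lowest mutant, as for *Hspe1*, and Mutant 78 the highest, again as for *Hspe1*. *Dnajb1* rose with a log2 fold change of 1.30 ± 0.25 (SE, adjusted p = 0.00528 in edgeR), and its adjusted p was 0.0509 with 1 surrogate variable and 0.0523 without Control 72 and Mutant 74, out of a range up to 0.0523 over 19 alternatives.

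*Hspb1*, a small heat shock protein, was at 28.8, 82.9, 65.7 and 84.7 CPM in the 4 controls and 136, 217, 141, 282 and 85.1 CPM in the 5 mutants, with Mutant 79 level with Control 76. Its log2 fold change was 1.39 ± 0.38 (SE, adjusted p = 0.0341 in edgeR). The call was lost in 10 of 19 alternatives. Among them were those without Control 72 (0.0813), Control 73 (0.0978), Mutant 74 (0.0573), Mutant 75 (0.0677) or Mutant 78 (0.0522) and that with 1 surrogate variable (0.198, the highest). *Hspa4*, an HSP70 exchange factor of the cytosol, rose from 93.4 ± 11.6 to 133 ± 9.39 CPM (log2 fold change 0.51 ± 0.12 SE, adjusted p = 0.0126 in edgeR). *Hspa8* and *Hsp90ab1*, with the highest CPM of the list, had adjusted p of 0.519 and 0.392 in edgeR.

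Of 5 transcription factors tied to the mitochondrial unfolded protein response, edgeR called 4 higher, against 7.82% of all tested genes. The median log2 fold change over the 5 was 0.89. DESeq2 and limma-voom each called 4 of the 5, against 21.2% and 32.4% of all tested genes. The list was chosen with earlier results of these data known, so nothing is read from the count itself. *Atf4*, the effector of the integrated stress response, was at 204, 168, 189 and 207 CPM in the 4 controls and 295, 461, 580.4, 482 and 448 CPM in the 5 mutants. *Ddit3* was at 57.5, 31.7, 37.1 and 51.5 CPM in the 4 controls and at 129.9, 136, 136, 140.2 and 166 CPM in the 5 mutants. For both genes every mutant exceeded every control, and for *Atf4* Mutant 74 was the lowest mutant.

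*Atf4* rose with a log2 fold change of 1.24 ± 0.17 (SE, adjusted p = 0.000857 in edgeR), and *Ddit3* with 1.67 ± 0.17 (SE, adjusted p = 0.000271 in edgeR). *Hsf1*, the regulator of the heat shock response, rose from 113 ± 15.2 to 166 ± 18.4 CPM (log2 fold change 0.55 ± 0.13 SE, adjusted p = 0.0130 in edgeR). *Atf4*, *Ddit3* and *Hsf1* passed in all 19 alternatives.

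*Cebpb* rose from 14.3 ± 2.64 to 26.6 ± 9.67 CPM (log2 fold change 0.89 ± 0.25 SE, adjusted p = 0.0331 in edgeR), with a mutant spread several times that of the controls. The call was lost in 8 of 19 alternatives, with an adjusted p between 0.0543 and 0.0819 without Control 71, Control 72, Control 73, Control 76, Mutant 75 or Mutant 78, 0.0583 without Control 72 and Mutant 74 together and 0.0837 with Y-linked expression as a covariate. *Atf5* was scarce, at 1.01 to 2.73 CPM in controls and 1.51 to 5.50 CPM in mutants, and its log2 fold change of 0.89 ± 0.42 (SE) had an adjusted p of 0.166 in edgeR, which fell under 0.05 in 1 of 19 alternatives, with 1 surrogate variable (0.0478).

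**Figure D3:**
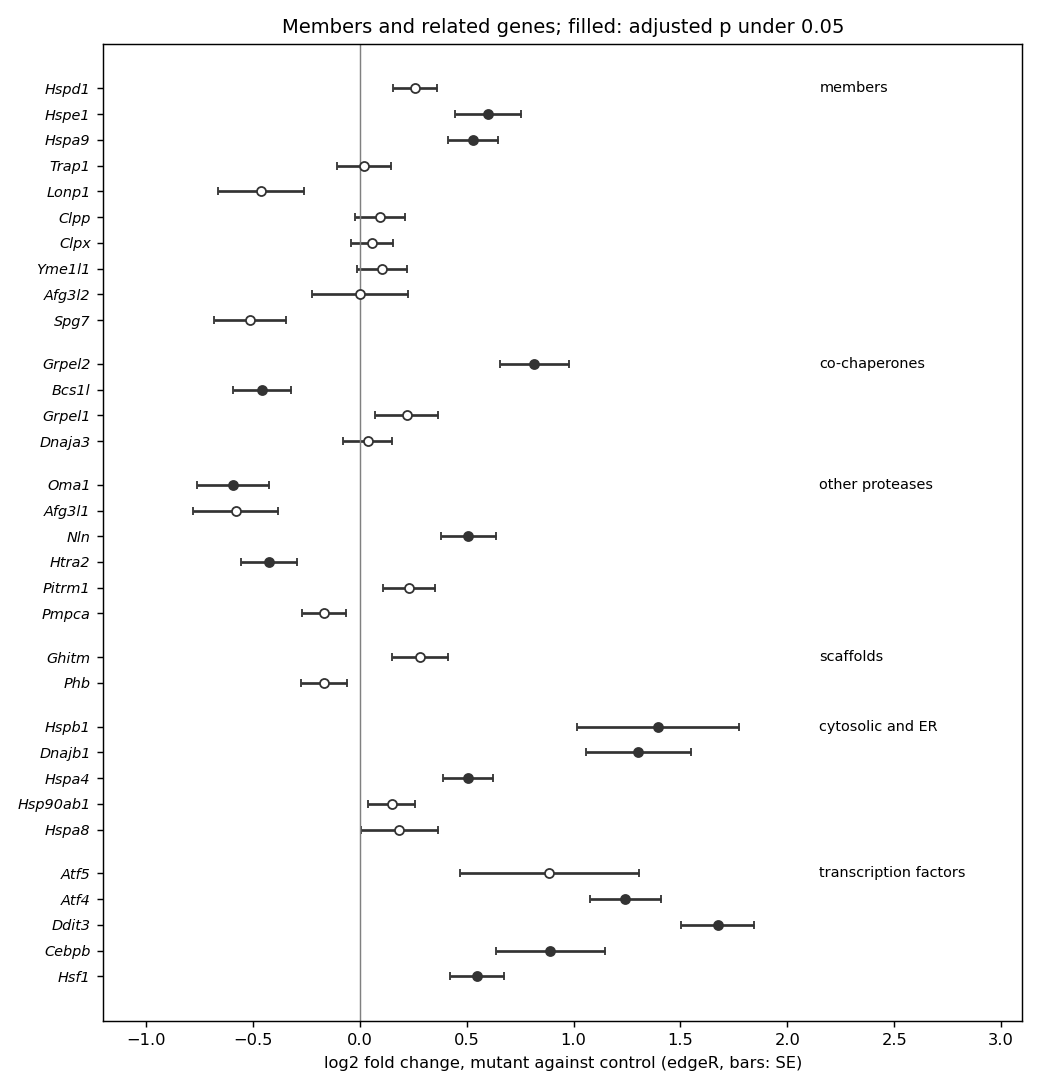
Log2 fold change, mutant against control, for the 10 chaperones and proteases and for related genes by list, with bars of 1 SE from edgeR and filled points where the adjusted p is under 0.05. *Ddit3*, at 1.67, lies farthest from 0, and the member farthest above 0 is *Hspe1*, at 0.60.

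The start sites were searched for letters bound by factors of heat shock and of the integrated stress response. *Hspe1*, which passed the threshold, starts beside *Hspd1*, which missed it but was also higher in every mutant than in every control. The ratio of the 2 genes had an adjusted p of 0.127 in the exact permutation test. RefSeq windows of GRCm38.p6, from 250 bases before to 50 after the start, were found for 8 of the 10 members, not for *Hspa9* and *Afg3l2*. *Hspd1* has 2 windows and each of the others 1, and a member counts once if any of its windows holds the letters, while shares are per window. Both strands were read. GAANNTTC was found in 2 of the 8 (*Hspd1* and *Hspe1*) and in 7.86% of 32817 windows, and TTCNNGAA in 3 (*Hspd1*, *Hspe1* and *Clpp*) and 8.51% of windows. A window of *Hspd1* and that of *Hspe1* share these letters, because the genes start from opposite strands of the same stretch.

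TGACGTCA, the cyclic AMP response element, was found in 1 of the 8 (*Trap1*) and 1.79% of windows. Its core TGACG, which also lies within it, was found in 5 (*Hspd1*, *Hspe1*, *Trap1*, *Lonp1* and *Yme1l1*) and 20.8% of windows. TGATGNAA, an element of C/EBP and ATF factors, was found in 0 of the 8 and 3.97% of windows. CCAAT was found in 3 (*Hspd1*, *Clpx* and *Yme1l1*) and 37.4% of windows, and GGGCGG in 7, all of the 8 but *Clpp*, and 35.6% of windows. A match describes the letters only, and no binding was measured.

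The part that the sites below have in the levels of these genes was not tested. Between *Hspe1* and *Hspd1*, the overlapping heat shock letters TTCNNGAA, GAANNTTC and TTCNNGAA follow each other in 1 run. The sites shown are these heat shock letters and the response element of *Trap1*. The former lies at chr1:55088053-55088082, 79 to 50 bases before the start of *Hspe1* in the deposited table, on the plus strand (95 to 66 before the RefSeq start of the window), within a 5′ untranslated exon of 1 of the 3 *Hspd1* transcripts in the GENCODE annotation and in no exon of *Hspe1*. The latter lies at chr16:4077839-4077868 on the minus strand, 41 to 12 bases before the start of *Trap1* in the deposited table (58 to 29 before the RefSeq start), in no annotated exon. Capitals mark the heat shock letters and TGACGTCA, while GGGCGG on the opposite strand, at the end of the *Trap1* stretch, is left in lower case.
Hspe1 and Hspd1: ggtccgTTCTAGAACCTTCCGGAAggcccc
Trap1: gtcgcgcgccaTGACGTCActgagccgccc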

How the data were processed

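RNA from sorted cells was amplified from low input, selected for poly(A) and sequenced without strand information, per the labels. The authors deposited whole-number counts of reads per gene for each library, not normalized, and the submitters' processing notes name STAR, DESeq2 and mm10 without saying how each was used. The deposited FPKM were the authors' counts divided by gene length and by the library's summed counts, which held within 0.1% for 100% of 177474 values above 0, so their ratios equal those of counts per kilobase. The gene length deposited by the authors gave values per kilobase. The table also holds the authors' genotype means, log2 fold changes and p-values with their adjusted form, which were not used. Genes were matched by symbol, because the identifier listed for *Hspe1* belongs to another gene.

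Members, lists and motifs were chosen with earlier results of these data known. Named are the 10 members, *Uqcrq*, *Afg3l1*, *Oma1*, the 5 transcription factors and, of each other related list, at most 5 genes past the threshold with the largest change and up to 2 with the highest mean CPM that did not pass. Marker genes were named after their values were seen.

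Counts were fitted over all genes with edgeR 4.0.16 in R 4.3.3 (TMM, filterByExpr, robust quasi-likelihood test, Benjamini-Hochberg adjustment over 14990 genes, threshold 0.05). For the SE, the size of the fitted log2 change was divided by √F. Library size after filtering and TMM gave CPM. No 2 libraries agreed within sampling noise. Alternatives used DESeq2 1.42.0, limma-voom 3.58.1 with sample weights, RLE and upper-quartile scaling, minimums of 1 count in any or 10 in every library, 1 surrogate variable (sva 3.50.0), Y-linked expression as a covariate, and each library left out. The steps were tested on simulated data. No batch, litter or sex was given in the labels.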

Additional observations from a re-analysis of the deposited data

Results flagged for a closer look

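Within a genotype, a library was singled out where its distance to the nearest other exceeded the share of the range that chance gives in about 1 in 20 groups. Of 90 groups of values examined, 2 held such a library, fewer than the 4.5 that chance would give. *Ddit3* in Mutant 79 was at 166 CPM, with the next mutant at 140.2 CPM. The summed markers of nascent nephrons and tubules in Control 76 were at 135 CPM, with the next control at 287 CPM.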

How the results depend on the processing

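Over 19 alternatives, *Uqcrq* kept its direction and call, with log2 fold changes from −2.34 to −2.06. The count of all genes past the threshold was 2225. It was 4858 with limma-voom, 4146 with mean gene length per count as a covariate and 2008 without Control 72 and Mutant 74. With 1 library left out it ranged from 1046 to 3136. The count of members was 4 with DESeq2, 4 with limma-voom and 5 with the length covariate, against 2, and from 1 to 4 with 1 library left out. The count of related genes was 19 with limma-voom, 18 with the length covariate and 6 without Control 72 and Mutant 74, against 12, and from 6 to 14 with 1 library left out. The length covariate and the joint omission were chosen after seeing the data. The cause of these changes was not tested.

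None of the 4 ratios reached an adjusted p of 0.05 in the exact permutation test with any library left out or without Control 72 and Mutant 74, and the smallest adjusted p was 0.0571. The ratio of the deposited FPKM equals that of counts per kilobase by construction and is no separate check. Where a mutant is left out, the test cannot give less than 0.0286 before adjustment, so 0.0571 is the least that 2 ratios at this limit can reach over the 4. Where a control is left out, the limit is 0.0179 before adjustment, and the smallest adjusted p was between 0.0714 and 0.167. The difference in the members' share of counts was 0.0210 percentage points, and from 0.0152 to 0.0250 with 1 library left out. No paired analysis was possible because the genotypes share no replicate numbers. Counts of *Atf5* lay between 24 and 129, and the lowest count of a member was 699. The part that depth has in the spread of *Atf5* was not tested.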
